A study of Mus musculus with 4 samples.

Results

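The Wnt pathway genes described here are 10 genes grouped by role: the ligands Wnt5a and Wnt5b, the secreted antagonists Sfrp1, Sfrp2, Dkk2 and Dkk3, the receptors Fzd1 and Fzd2, the feedback gene Axin2, and Ctnnb1, which encodes beta-catenin. They were found by matching the gene column of the deposited count table, which lists 13192 genes. Of the 10, 8 were listed; Wnt5b and Dkk2 were unlisted, so their expression was not analysed here. All 8 listed genes passed the filter on low counts, but Axin2 passed it only through its counts in the control group.

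The libraries came from primary mouse cardiac fibroblasts, labelled as neonatal and of wild-type genotype, collected at day 7; the titles also carry the code P3, which they do not explain. Control cells carried a non-targeting short hairpin RNA (shNT), and the others a hairpin against Nr4a3 (shNr4a3), an orphan nuclear receptor; a short hairpin RNA is processed in the cell into a small RNA that lowers the transcript it matches. There were 2 libraries per group, and both groups share the genotype, age and day. The labels give no hairpin sequence, do not say how many hairpins were used, and do not say whether replicates are separate cultures, so p-values measure only the spread between these libraries. The counts assigned to listed genes came to between 34068241 and 35111013 per library. As a check of the labels, Nr4a3 itself was counted 60 and 29 times in the controls and 4 and 8 times in the knockdown. The difference was -2.98 ± 0.67 on the log2 scale (adjusted p = 3.22e-04, edgeR). Nr4a3 passed the filter on low counts only through the controls, where it is higher, and its low counts leave the size loosely set. It was low in the controls too, at rank 11754 of 12659 genes by normalised level per kilobase of annotated exon.

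Wnt proteins are secreted lipid-modified ligands that bind Frizzled receptors on the cell surface. In the canonical branch, Frizzled acts with the co-receptors Lrp5 and Lrp6 to stop a complex built on Axin and Apc from marking beta-catenin for destruction, and beta-catenin then enters the nucleus and switches on targets with factors of the TCF/LEF family. Axin2 is a direct target of that branch and dampens it. Wnt5a signals mostly through other branches, which act on cell shape and movement by way of Frizzled, Ror2 and the planar cell polarity proteins. In the heart, Wnt signals act in development, in the epicardium and in the scarring response of fibroblasts.

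The 3 listed antagonists and the beta-catenin transcript fell in shNr4a3, as did Axin2 on few counts, while Wnt5a and Fzd2 rose and Fzd1 did not pass the test. Differences were tested by the quasi-likelihood F test of edgeR on all 13160 genes that passed the filter, with Benjamini-Hochberg adjustment over all of them and a threshold of 0.05. Of the 8 members, 2 were higher and 5 lower. The background was high: 55.5% of all tested genes passed, made up of 27.6% of all tested genes that were higher and 27.9% that were lower. In all 8 members the normalised libraries of the groups did not overlap, as in 77.2% of all tested genes. For Fzd1 this rests on the scaling: its raw counts overlap, and scaled by library totals alone its log2 fold change was -0.006. The median log2 fold change was -0.90 over the members and 0.00 over all tested genes. Against a minimum absolute log2 fold change of 0.5, Wnt5a and Fzd2 passed as higher and Sfrp1, Sfrp2 and Ctnnb1 as lower, where 16.0% of all genes passed in either direction.

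**Figure D1:**
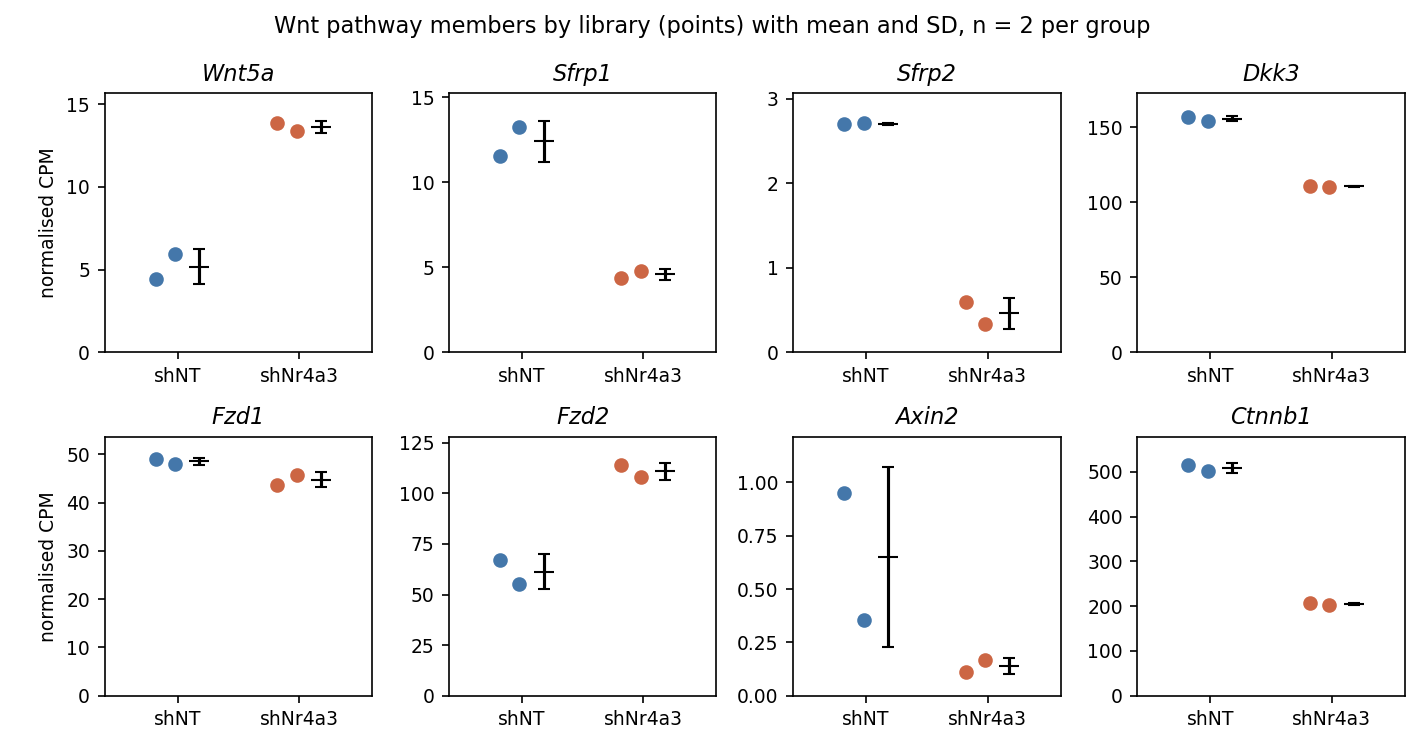
Normalised CPM (counts scaled to the library's size; vertical axis from 0) of the 8 listed members. Points are libraries, 2 per group, and the bar beside them is the mean with its SD; Wnt5a and Fzd2 lie higher in shNr4a3, and Fzd1 differs little between the groups (48.6 against 44.7 CPM).

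Markers of other cell types moved with the hairpin too. The share that passed was 90.9% of fibroblast, 100% of mesothelial, 81.8% of endothelial and 83.3% of mural markers. It was 75% of macrophage, 60% of glial and 20% of cardiomyocyte markers, against 55.5% of all tested genes. All 11 fibroblast markers were listed, and none was at 0 in any library: 5 rose and 5 fell, and their summed level was 14963 and 14468 normalised CPM (counts scaled to the library's size) in shNT and 10394 and 10443 in shNr4a3. The smallest p were those of Col1a1 (log2 fold change -1.15) and Tcf21 (-1.91). Rises were seen in Pdgfra (0.73), Lum (0.63), Postn (0.59), Col3a1 (0.19) and Dcn (0.16), which the naming rule did not pick, and the list median was -0.04. All 12 mesothelial markers fell, with the smallest p in Msln (-4.33) and Upk1b (-3.32), and their sum went from 676 and 648 normalised CPM to 155 and 157. Krt14, named after its values were seen, was at 0 in both shNr4a3 libraries. Of 11 endothelial markers tested 9 fell, with the smallest p in Emcn (-2.01) and Cdh5 (-2.04), and their sum was 973 and 871 against 523 and 527; of 6 mural markers 4 fell, with the smallest p in Cspg4 (-2.76) and Mcam (-1.06), and 1 rose, with sums of 711 and 629 against 367 and 370. Among 5 cardiomyocyte markers only Tnnt2 passed (-1.07), and Ryr2 was at 0.71 (adjusted p = 0.385, edgeR). The sums were 1059 and 1003 against 480 and 506, nearly all of it Tnnt2 (1057 and 1001 against 478 and 504). Of 5 glial markers 3 fell, with Ngfr at -2.22, and sums of 7.91 and 6.07 against 2.39 and 2.84. Of 4 macrophage markers Lyz2 rose (1.12) and 2 fell, including Cd14 (-1.58), with sums of 59.1 and 59.8 against 99.4 and 98.8. Lyz2 alone was at 40.3 and 42.2 against 90.9 and 87.8. In bulk RNA, fewer cells of a type and less RNA per cell cannot be told apart, and the part of these cell types in the results on Wnt genes was not tested.

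Levels were set side by side per kilobase of annotated exon (normalised CPM divided by the exon length in GENCODE M21), because counts of genes of unequal length cannot be compared. In shNT, Ctnnb1 was the most abundant member at 98.0 ± 2.1 CPM per kilobase (SD, n = 2), rank 386 of 12659 genes with a matched length. Dkk3 followed at 46.4 ± 0.51, Fzd2 at 16.7 ± 2.4 and Fzd1 at 11.6 ± 0.18. Sfrp1 (2.84 ± 0.28), Sfrp2 (1.26 ± 0.0043) and Wnt5a (0.663 ± 0.14) were lower, and Axin2, at 0.118 ± 0.077, ranked 12243. No library of a member overlapped one of its neighbour in this order. In shNr4a3 the order changed in 1 place: Wnt5a, at 1.74 ± 0.047 CPM per kilobase, now stood above Sfrp1 (1.05 ± 0.071) and Sfrp2 (0.214 ± 0.085). Ctnnb1 (39.5 ± 0.50), Dkk3 (32.9 ± 0.12) and Fzd2 (30.3 ± 1.2) came close together at the top, though their libraries still did not overlap. Fzd1 stood at 10.7 ± 0.37 and Axin2 at 0.0252 ± 0.0068.

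**Figure D2:**
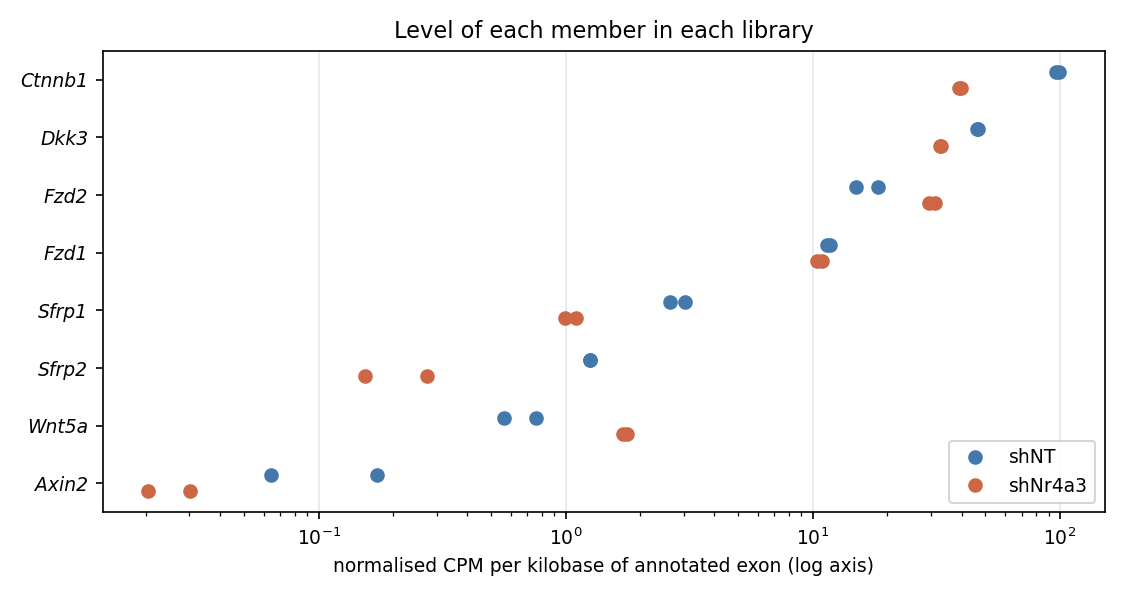
Level of each listed member in each library, in normalised CPM per kilobase of annotated exon on a log axis, ordered by the shNT mean. Points are libraries; Wnt5a passes Sfrp1 and Sfrp2 in shNr4a3, and Ctnnb1, Dkk3 and Fzd2 draw together between 29.5 and 39.8.

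Among the ligands, Wnt5a (GRCm38 chromosome 14, 28504750 to 28527448, plus strand), the prototype of the ligands that act without beta-catenin, was counted 144 and 202 times in shNT and 494 and 485 times in shNr4a3. Both knockdown libraries lay above both controls, and the spread was wider among the controls (5.19 ± 1.09 normalised CPM against 13.6 ± 0.37; SD, n = 2). The rise was 2.62-fold (log2 fold change 1.39 ± 0.17, SE; adjusted p = 3.29e-08, edgeR). The authors' deposited table labels Wnt5a as up, with 1.39 on the log2 scale and an adjusted p of 2.27e-04. An antisense transcript covers 4.58% of its exon bases. The kit was stranded, but the strand setting of the counting is not given in the sources used here. Whether reads of the 2 were kept apart is therefore not known.

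Of 19 Wnt ligand genes 8 were listed and tested, and the passing ones split between rises and falls. They made up 62.5% of those tested, against 55.5% of all tested genes. Wnt16 rose with Wnt5a, from 115 and 73 control counts to 307 and 258 (log2 fold change 1.47 ± 0.23). Wnt2, which acts through beta-catenin in many tissues, fell from 76 and 102 counts to 28 and 13 (-2.22 ± 0.44). Wnt2b fell from 86 and 114 to 46 and 35 (-1.41 ± 0.35). Wnt10b, a canonical ligand, had 58 and 20 control counts and 6 and 0 knockdown counts. Its log2 fold change of -3.76 passed in edgeR (adjusted p = 3.79e-04) but not in DESeq2 (-3.82, adjusted p = 0.0959), and was -2.76 without shNT replicate 1 and -8.34 without shNr4a3 replicate 1, where the remaining knockdown library is at 0 and the fitted size is no bound. Wnt10b passed the filter on low counts only through the controls, where it is higher. It has an adjusted p of 0.362 and no call in the authors' deposited table. That p tests whether the size of the change exceeds 0.5, whereas the edgeR and DESeq2 values test for any change. The other 3 did not pass: Wnt4 (-0.86), Wnt9a (0.19) and Wnt11 (0.12), named after their values were seen. Scaled by library totals alone, Wnt9a passed as higher (0.31, adjusted p = 0.00446, edgeR). Wls, the membrane protein that carries Wnt ligands to the cell surface, rose from 14714 and 16316 counts to 21578 and 21362 (0.36 ± 0.05), while Porcn, the enzyme that attaches their lipid and named after its value was seen, was at -0.02 ± 0.29 (adjusted p = 0.956, edgeR).

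Among the secreted antagonists, 5 of 7 tested genes fell, the 3 members among them, and 1 rose. Thus 85.7% of them passed, against 55.5% of all tested genes. Sfrp1 and Sfrp2 encode secreted Frizzled-related proteins, which carry a Frizzled-like domain and bind Wnt ligands outside the cell. Sfrp1 (chromosome 8, 23411502 to 23449632, plus strand) had 376 and 450 counts in the controls and 155 and 174 in the knockdown. Its normalised level went from 12.4 ± 1.2 to 4.58 ± 0.31 CPM (SD, n = 2), a 2.71-fold fall (log2 fold change -1.44 ± 0.17; adjusted p = 2.54e-08, edgeR). Sfrp2 (chromosome 3, 83766321 to 83774316, plus strand) had 88 and 92 counts against 21 and 12. The controls agreed closely and both knockdown libraries were far below them, from 2.71 ± 0.0093 to 0.461 ± 0.18 CPM, a 5.84-fold fall (-2.55 ± 0.45; adjusted p = 1.57e-05, edgeR). Its low counts leave the size loosely set, and an antisense transcript covers 16.1% of its exon bases. The ratio of Sfrp1 to Sfrp2 per kilobase was 2.10 and 2.41 in shNT and 3.63 and 7.14 in shNr4a3; that pair of genes was not tested against each other.

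Dkk3 (chromosome 7, 112116017 to 112159057, minus strand), a divergent member of the Dickkopf family whose action on Wnt signalling varies with the cell type, was counted 5119 and 5244 times in shNT and 3943 and 4002 times in shNr4a3. Its level went from 155.8 ± 1.7 to 110.6 ± 0.41 CPM (SD, n = 2), a 1.41-fold fall (-0.49 ± 0.06; adjusted p = 5.70e-08, edgeR). It was the smallest fall among the members that passed, and it did not pass against a minimum log2 fold change of 0.5 (adjusted p = 0.808, edgeR glmTreat). The authors' deposited table gives it -0.50 and no call.

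The full list holds 13 antagonist genes, and the median over the 7 tested was -1.44. Frzb, another Frizzled-related protein, fell from 1508 and 1709 counts to 1011 and 1039 (-0.76 ± 0.09), and Sost, sclerostin, a ligand of Lrp5 and Lrp6, from 161 and 183 to 50 and 51 (-1.87 ± 0.28). Sfrp4 moved the other way, from 54 and 45 counts to 182 and 176 (1.74 ± 0.28). Of the 4 listed genes of the Frizzled-related family, 3 thus fell and 1 rose, also with each of the other scalings tried. Dkk1, which blocks Lrp5 and Lrp6 and was named after its value was seen, had 16 and 22 counts against 2 and 10 and did not pass (-1.75 ± 0.81; adjusted p = 0.0663, edgeR).

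Of the 2 Frizzled members, Fzd2 rose and Fzd1 did not pass. Fzd1 (chromosome 5, 4753839 to 4758035, minus strand) had 1601 and 1630 control counts and 1551 and 1662 knockdown counts, which overlap, though after normalisation they do not. The difference was -0.12 ± 0.08 on the log2 scale (adjusted p = 0.228, edgeR), and it passed in none of the 14 alternatives. Fzd2 (chromosome 11, 102604396 to 102608058, plus strand), which can bind Wnt5a, had 2194 and 1867 counts against 4054 and 3918. Both knockdown libraries were above both controls, at 111.0 ± 4.3 against 61.2 ± 8.7 CPM (SD, n = 2), a 1.82-fold rise (0.86 ± 0.08; adjusted p = 1.27e-10, edgeR). Fzd2 transcripts were 1.57 and 1.31 times as abundant as Fzd1 per kilobase in shNT and 2.99 and 2.70 times in shNr4a3; the difference between the genes was not tested. The authors' deposited table gives Fzd2 a log2 fold change of 0.86 and an adjusted p of 0.00183 but labels it non-significant, and no gene it labels up has a log2 fold change below 1.00.

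Of 16 receptor and co-receptor genes tested 3 rose and 6 fell, with a median of -0.15. Their share that passed, 56.25%, was near the 55.5% of all tested genes. Within the Frizzled family, 9 genes were listed: Fzd2 and Fzd6 rose, Fzd3 and Fzd7 fell, and 5 did not pass; scaled by library totals alone, Fzd3 did not pass either (-0.31, adjusted p = 0.105, edgeR), and the family median turned from -0.10 to 0.02. Fzd6, which acts in planar polarity, went from 1031 and 1111 counts to 2694 and 2875 (1.27 ± 0.08). The co-receptor Lrp5 fell from 8119 and 7227 counts to 4808 and 5087 (-0.75 ± 0.07). Ror2, a receptor tyrosine kinase for Wnt5a, fell from 497 and 410 to 236 and 275 (-0.94 ± 0.16), and Ptk7, a related pseudokinase of the polarity branch, from 9736 and 9514 to 7161 and 7184 (-0.54 ± 0.06). Fzd3 (-0.43), Fzd7 (-0.32), Lrp6 (-0.37) and Ryk (0.20), an atypical Wnt receptor that rose, were named after their values were seen.

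R-spondins, secreted proteins that raise Frizzled levels by way of the Lgr receptors, were low and split. Of 6 tested genes of R-spondins and receptor turnover, 2 rose and 2 fell. This was 66.7%, against 55.5% of all tested genes. Rspo1 had 68 and 48 counts in the controls and 6 and 0 in the knockdown (adjusted p = 1.10e-05, edgeR). The authors' deposited table gives Rspo1 an adjusted p of 0.114 and Lgr6 of 0.112, with no call for either. Those deposited values test whether the size of the change exceeds 0.5, whereas the edgeR values test for any change. Rspo1 and Lgr6 passed the filter on low counts only through the controls, where they are higher. Rspo2 had 34 and 26 against 122 and 126 (1.93 ± 0.35). Lgr4 rose from 844 and 996 counts to 1457 and 1387 (0.52 ± 0.10). Lgr6 fell from 38 and 23 to 1 and 10 (-2.56 ± 0.76; adjusted p = 0.00512, edgeR), but it did not pass when shNT replicate 1 (-2.12) or shNr4a3 replicate 1 (-1.73) was left out, and was at -4.86 without shNr4a3 replicate 2.

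**Figure D3:**
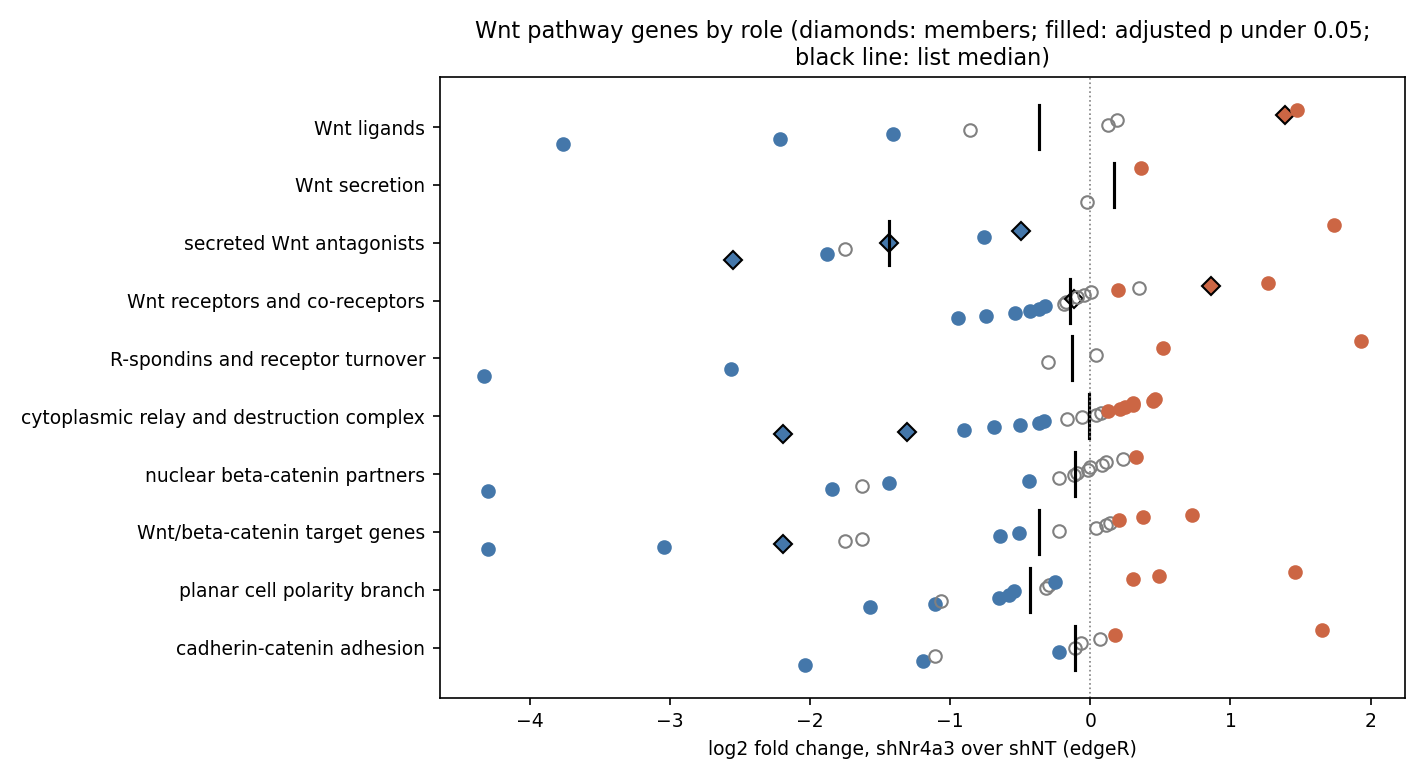
Log2 fold change (shNr4a3 over shNT, horizontal axis) of 101 tested Wnt pathway genes, in rows by role; a gene in 2 lists is drawn in each. Diamonds are the members, filled symbols passed at an adjusted p under 0.05 (edgeR), and black lines are list medians; the antagonists have the lowest median, -1.44.

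Ctnnb1 (chromosome 9, 120929216 to 120960507, plus strand), the effector of the canonical branch and also a link between cadherins and the actin cytoskeleton, showed the smallest p of the members. It was counted 16830 and 16993 times in shNT and 7354 and 7371 times in shNr4a3. Replicates differed by little, and the groups were far apart: 508.6 ± 10.8 against 205.0 ± 2.6 CPM (SD, n = 2), a 2.48-fold fall (-1.31 ± 0.06; adjusted p = 4.03e-19, edgeR). Its rank per kilobase went from 386 to 1091. Of its exon bases 15.1% are shared with Ulk4 on the opposite strand or with a microRNA gene; Ulk4 itself had 32 to 58 counts per library. These are transcript levels; beta-catenin is regulated largely as a protein, which was not measured.

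Of 18 genes of the cytoplasmic relay and destruction complex, 7 rose and 7 fell, with a median of -0.01, which turned to 0.10 with library totals only. The share that passed was 77.8%, against 55.5% of all tested genes. Amer1, which recruits the complex to the membrane, fell from 742 and 795 counts to 421 and 468 (-0.90 ± 0.12). Dvl1 and Dvl2, which relay the signal from Frizzled, fell by 0.69 (SE 0.07) and 0.50 (SE 0.09), whereas Dvl3, named after its value was seen, rose by 0.21 (SE 0.07). Tnks, a tankyrase that promotes Axin breakdown, fell by 0.37 (SE 0.06). The other tankyrase, Tnks2, named after its value was seen, rose by 0.24 (SE 0.06). Csnk1g1, a casein kinase, rose by 0.45 (SE 0.07). Among genes of the machinery that removes beta-catenin, named after their values were seen, Btrc (0.46), Apc (0.31) and Gsk3b (0.30) rose, Apc2 fell (-0.33), and Gsk3a was at 0.04 and did not pass. Axin1, the main scaffold, did not pass (-0.17 ± 0.09; adjusted p = 0.125, edgeR).

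Axin2 (chromosome 11, 108920349 to 108950783, plus strand) was near the limit of detection. It had 31 and 12 control counts and 4 and 6 knockdown counts, where 3 counts correspond to 0.0854 to 0.0881 CPM. The knockdown libraries were below both controls, but the controls differed more from each other (0.951 and 0.354 CPM) than the lower of them did from the knockdown libraries (0.113 and 0.165 CPM). The log2 fold change was -2.20 ± 0.81 (adjusted p = 0.0223, edgeR). It did not pass in DESeq2 (-2.23, adjusted p = 0.0540). In edgeR its call was lost without shNT replicate 1 (-1.32) or without shNr4a3 replicate 1 (-1.95). The authors' deposited table gives it an adjusted p of 0.293 and no call. That p tests whether the size of the change exceeds 0.5, whereas the edgeR and DESeq2 values test for any change.

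Of 14 tested targets of the canonical branch, Axin2 included, 5 fell and 3 rose, with a median of -0.36. The share that passed, 57.1%, was near the 55.5% of all tested genes. The falls of largest size were in genes with few counts, which passed the filter through shNT alone. Sp5, a transcription factor and direct target, had 87 and 28 counts in the controls and 5 and 10 in the knockdown (-3.04 ± 0.64; adjusted p = 1.70e-04, edgeR); without shNT replicate 1 it did not pass (-1.96, adjusted p = 0.0606). Tcf7, both a target and a partner of beta-catenin, had 18 and 23 counts against 0 and 2, a ratio of 0.0489 between the groups with an exact interval at 95% from 0.00573 to 0.188 that covers counting error only. Lef1 had 16 and 16 counts against 5 and 6 and did not pass (adjusted p = 0.0943, edgeR). Among abundant targets Ccn4, a matricellular protein, rose from 26509 and 27698 counts to 47951 and 48908 (0.73 ± 0.05), while Cd44, the hyaluronan receptor, fell from 15213 and 16344 to 10648 and 11109 (-0.65 ± 0.05) and Nkd2, a feedback inhibitor, from 4677 and 4407 to 3370 and 3547 (-0.51 ± 0.07). Nkd1 (0.38) and Ccnd1, cyclin D1 (0.20), rose, and Myc (0.14, adjusted p = 0.129, edgeR) did not pass; these 3 were named after their values were seen. Myc passed as higher when scaled by library totals alone (0.25, adjusted p = 0.00908, edgeR).

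**Figure D4:**
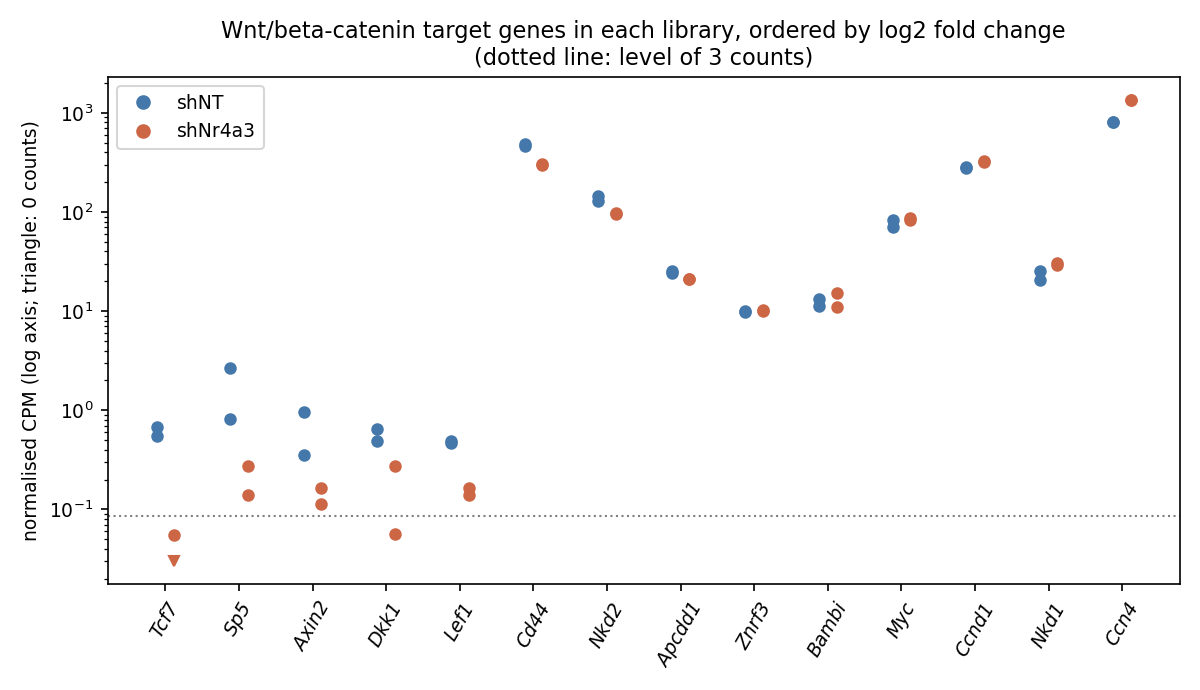
Normalised CPM (log axis) of the 14 tested Wnt/beta-catenin target genes in each library, ordered by log2 fold change; the dotted line is the level of 3 counts and a triangle marks 0 counts. Tcf7, Sp5, Axin2, Dkk1 and Lef1 lie under 3 CPM in every library, and Ccn4 is higher in both shNr4a3 libraries.

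Among 14 nuclear partners of beta-catenin 4 fell and 1 rose, and 9 did not pass. The 35.7% that passed was below the 55.5% of all tested genes. Tcf7, 1 of the 4 that fell, passed the filter on low counts only through shNT. Tle2, a co-repressor, fell from 718 and 663 counts to 226 and 190 (-1.84 ± 0.15), and Ctnnbip1, which blocks the contact of beta-catenin with TCF factors, from 514 and 461 to 189 and 200 (-1.44 ± 0.16). Tcf7l2 fell by 0.44 (SE 0.11), a call lost without shNr4a3 replicate 2 (-0.34, adjusted p = 0.0601, edgeR). With library totals only, 4 rose and 4 fell, and the list median turned from -0.11 to 0.01.

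Genes of the planar polarity branch, which Wnt5a can engage, fell in 6 of 12 cases and rose in 3, with a median of -0.43. Thus 75% of them passed, against 55.5% of all tested genes. Dact1, a modulator of dishevelled, rose from 209 and 234 counts to 673 and 642 (1.46 ± 0.14), and Daam1, a formin that binds dishevelled, from 5443 and 5327 to 8073 and 8227 (0.49 ± 0.06). Dact3, a relative of Dact1, fell by 0.65 (SE 0.09) and Prickle2 by 0.58 (SE 0.08). Vangl2, a core polarity protein named after its value was seen, fell from 113 and 175 counts to 44 and 60 (-1.57 ± 0.31). With library totals only 3 rose and 4 fell.

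Across all lists, 101 of 126 genes were listed and tested: 25 rose and 39 fell, 63.4% of those tested against 55.5% of all genes, with a median of -0.17. Without the members, 93 genes were tested and 61.3% passed. Of the 101, 8 passed the filter on low counts only through shNT, and 1 only through shNr4a3. The 8 were Wnt10b, Dkk1, Rspo1, Lgr6, Axin2, Tcf7, Lef1 and Sp5. Scaled by library totals alone, 32 rose and 34 fell, and the median was -0.06. By Euclidean distance over the 4 libraries between centred log2 CPM values, the pathway gene most like Wnt5a was Dact1 (0.24), and that most like Sfrp2 was Wnt2 (0.42). Dkk3 was nearest to Dvl2 (0.06), Fzd1 to Fzd8 (0.04), Fzd2 to Ccn4 (0.26), Axin2 to Ctnna3 (0.85), and Sfrp1 and Ctnnb1 both to Lef1 (0.19 and 0.15). Before the log, a prior count of 2 was added, which shrinks changes in genes with few counts. Lef1 is such a gene (16 and 16 against 5 and 6 counts). Its edgeR log2 fold change was -1.63, against -1.31 for Ctnnb1, and it did not pass. With 2 groups of 2, this distance mostly follows the difference between the groups. Antisense or overlapping genes share 34.9% of the exon bases of Dact1, 25.8% of Ctnnbip1 and 19.7% of Dvl2. Whether reads from both were kept apart there is not known.

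Promoter sequence was at hand for 6 of the 10 members in the RefSeq table for GRCm38.p6, which holds 250 bases before and 50 after each start. Shown are 3 members that fell together, Ctnnb1 (the second of its 2 starts), Sfrp2 and Axin2, and Fzd1, which did not pass, so that the windows can be compared. Capitals mark matches to the core that TCF/LEF factors bind (CTTTGA and the variant ending in T, CTTTGT, on either strand), and all other bases are in lower case. They lie at chr9:120933328-120933627 (plus strand), chr3:83766071-83766370 (plus), chr11:108920099-108920398 (plus) and chr5:4758167-4758466 (minus).
Ctnnb1: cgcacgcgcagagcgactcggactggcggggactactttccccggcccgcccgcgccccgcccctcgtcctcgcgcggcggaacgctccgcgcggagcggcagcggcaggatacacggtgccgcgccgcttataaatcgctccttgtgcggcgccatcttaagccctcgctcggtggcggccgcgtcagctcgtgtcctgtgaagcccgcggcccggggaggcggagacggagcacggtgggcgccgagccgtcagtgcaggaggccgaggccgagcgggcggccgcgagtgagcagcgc
Sfrp2: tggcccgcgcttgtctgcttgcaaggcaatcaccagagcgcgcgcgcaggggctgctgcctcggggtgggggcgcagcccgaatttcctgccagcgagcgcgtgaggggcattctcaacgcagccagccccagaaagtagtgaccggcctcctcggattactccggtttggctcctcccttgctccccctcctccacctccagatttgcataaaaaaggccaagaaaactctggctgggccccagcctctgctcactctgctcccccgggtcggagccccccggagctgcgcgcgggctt
Axin2: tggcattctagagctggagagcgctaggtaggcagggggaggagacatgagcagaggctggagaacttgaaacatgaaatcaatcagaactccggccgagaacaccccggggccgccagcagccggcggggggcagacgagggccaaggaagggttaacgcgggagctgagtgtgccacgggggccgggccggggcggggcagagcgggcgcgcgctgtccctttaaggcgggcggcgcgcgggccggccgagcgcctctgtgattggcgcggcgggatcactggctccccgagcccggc
Fzd1: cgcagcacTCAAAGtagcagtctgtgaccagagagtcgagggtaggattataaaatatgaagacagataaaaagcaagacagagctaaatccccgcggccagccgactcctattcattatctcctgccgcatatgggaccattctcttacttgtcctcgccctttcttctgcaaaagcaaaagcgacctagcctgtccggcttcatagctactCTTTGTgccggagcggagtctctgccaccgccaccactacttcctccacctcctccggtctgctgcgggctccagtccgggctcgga

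The Fzd1 window holds the core that ends in T at 37 bases before the start, and the core that ends in A, on the other strand, at 242 bases before it; the other 3 windows hold neither core. Over the members, 3 of 9 windows had a core (Fzd1, Dkk2 and 1 of 3 starts of Wnt5b), and 31.2% of 32851 windows in the table did. The site that NR4A receptors bind as monomers, the NBRE (AAAGGTCA, either strand), was in 0 of the 9 windows and in 1.51% of all windows. GC content was 75.0% in the Ctnnb1 window, 66.0% in Sfrp2, 70.0% in Axin2 and 54.0% in Fzd1, with a median of 52.7% over all windows. These are descriptions of 300 bases, not of binding.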

How the data were processed

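RNA-seq of mouse cardiac fibroblasts was compared between a hairpin against Nr4a3 and a non-targeting hairpin, with 2 libraries each. Per the labels' protocols, ribosomal RNA was depleted and a stranded kit and paired-end HiSeq X sequencing were used, though the molecule is labelled polyA RNA. Reads were processed on mm10 with Trimmomatic 0.36, featureCounts, Subread 1.5.1 and SAMtools, per the submitters' processing notes; for the aligner and the strand setting, the sources used here name nothing.

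The deposited counts are whole numbers per gene and are raw, per the file headers; no listed gene had a mean under 10.25. The authors' FPKM imply a whole-number length for 100% of nonzero values (within 0.01 bases), but these lengths do not follow annotated ones, so FPKM was not used for levels. Log2 fold changes, their standard errors (a score column) and p-values are also deposited; their p-value equals that of a normal test of whether the size of the change exceeds 0.5. The deposited mean signal was not used.

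Counts were tested with edgeR 4.0.16 in R 4.3.3 (robust quasi-likelihood F test, TMM factors, filterByExpr, which removed 32 genes). The SE of a log2 fold change is its size over the square root of F. Alternatives included DESeq2 1.42.0 and limma 3.58.1 (voom), other scalings and filters, a replicate block, a minimum fold and leaving out each library. Exon lengths and positions are from GENCODE M21 (GRCm38), which matched 96.2% of listed symbols. Members and lists were chosen with earlier results of these data known. Named genes were the members, up to 4 others of each list with the smallest p, the nearest gene to each member and 2 per marker list, of which 1 is not reported here. The edgeR fit was checked on simulated counts in which few genes changed. In these data 55.5% of tested genes passed, so that check does not cover scaling or error rates in this setting. Intervals and floors cover counting error only.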

Additional observations from a re-analysis of the deposited data

How the results depend on the processing

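The 2 rises (Wnt5a and Fzd2) and the falls of Sfrp1, Sfrp2 and Ctnnb1 passed in all 14 alternatives, with log2 fold changes of 1.20 to 1.63, 0.72 to 1.01, -1.53 to -1.32, -3.02 to -2.19 and -1.33 to -1.20. Against a minimum absolute log2 fold change of 0.5 (glmTreat), 3 members were called lower, 9 pathway genes higher and 22 lower, and 2101 genes in all; the rule itself takes out small changes. Leaving out 1 library gave 4 or 5 members lower, 2 higher, 18 to 28 pathway genes higher and 32 to 42 lower. With a filter of 50 counts in 2 libraries, Axin2 was not tested and 4 members were lower. With library totals only, the median of all genes moved by 0.11, and the split was 4702 higher and 2837 lower (62.4% higher, against 49.7% with TMM factors). Over 47 of the pathway genes named by the rule, 625 of 650 recomputed values kept their call, 25 lost it and 0 reversed. Ctnna1 lost its call with library totals only (-0.11) and without either shNr4a3 library (-0.22 and -0.23). With the replicate number as a replicate block, 2 members were higher and 5 lower, and 7151 genes passed in all. Deviations of same-numbered libraries had a correlation of -0.03 over genes, so no shared replicate effect was seen by this measure. Whether same-numbered libraries share a culture or batch is not given, and a correlation near 0 cannot decide it. Dixon's outlier check was not run on groups of 2. Counts of 4 to 31, as in Axin2, cannot set a fold closely at this depth.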

Other observations

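Beta-catenin also works at cell junctions. Of the tested genes of that complex 55.6% passed, against 55.5% of all tested genes. Of 10 cadherin and catenin genes 9 were listed and tested; 3 were lower and 2 higher, and their median on the log2 scale, -0.11, turned to 0.00 with library totals only. Jup, plakoglobin, the closest relative of beta-catenin, went from 9539 and 8592 control counts to 4165 and 4405, and fell by 1.19 (SE 0.07) on the log2 scale. Cdh5, VE-cadherin of endothelium, fell from 2580 and 2547 counts to 708 and 639 (-2.04 ± 0.09). Ctnna1, the alpha-catenin that ties the complex to actin, fell by 0.22 (SE 0.05), and Ctnna2, its relative in neurons, had 54 and 30 counts against 132 and 155 (1.65 ± 0.32). Cdh2, N-cadherin, named after its value was seen, rose by 0.18 (SE 0.05). Cdh11, the cadherin of fibroblasts, also named so, did not pass (-0.11 ± 0.06; adjusted p = 0.128, edgeR).

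The deposited FPKM do not rank genes. The gene lengths they imply had a rank correlation of -0.0057 with annotated exon lengths across 12689 genes, which all come from the same table, and 8.39% lay within 10% of the annotated length. For Wnt5a the implied length is 1600 bases and the annotated one 7823, and for Dkk3 they are 7897 and 3359. On the deposited FPKM, Wnt5a in shNr4a3 (8.86) stands above Fzd1 (8.31), while per kilobase of annotated exon it is at 1.74 against 10.7 CPM. Ratios between libraries of 1 gene are not touched, since the length is the same in each.

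Over all genes, the controls differed more from each other than the knockdown libraries did. The mean chi-square per gene between the libraries of a group was 11.2 in shNT and 3.99 in shNr4a3. Several low genes of the pathway also differed between the controls. In shNT replicate 1 against replicate 2, Axin2 had 31 and 12 counts, Sp5 87 and 28, Wnt10b 58 and 20 and Rspo3 35 and 8, the last named after its values were seen. Tcf7 (18 and 23), Lef1 (16 and 16) and Dkk1 (16 and 22) did not share this.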
